A study of Homo sapiens with 11 samples.

Results

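The 48 genes described here encode collagen chains or mark the matrix of fibroblasts. They were chosen by symbol from the 26485 gene symbols of the count tables, as the 44 symbols made of COL, a number, A and a number, together with DCN, LUM, POSTN and THY1. The choice was made with earlier results in view, since some of these genes were seen to be high in a single control library at 2 h. The values at 2 h are therefore given as a description, without a test.

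RNA was sequenced from Caki-1-SR, a sunitinib-resistant derivative of the human clear cell renal cell carcinoma (ccRCC) line Caki-1, which came from a skin metastasis. The cells were of a single resistant clone and had been kept in 1 µM sunitinib, an inhibitor of receptor tyrosine kinases, as had the controls. The treatment, ODC, combined the ruthenium compound Rapta-C at 2 µM, the EGFR inhibitor erlotinib at 1 µM, the diabetes drug metformin at 1 µM and the plant product parthenolide at 5 µM, and the control (CTRL) received none of them. At 24 h there were 3 CTRL and 3 ODC libraries, and at 2 h there were 2 CTRL and 3 ODC libraries, 11 in all. The 2 h and the 24 h libraries carry different months in their names and were counted in separate tables. What the month refers to is not stated, and it cannot be told apart from time.

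Library totals were 17785229 to 20882856 counts at 24 h and 25782895 to 31118349 at 2 h. A level of 3 counts, used as the floor, corresponded at 24 h to 0.144 to 0.169 CPM (counts scaled to the library total and by the TMM method) and at 2 h to 0.0964 to 0.116 CPM, and covers counting error only. The labelled cell type was checked against its markers. PAX8, a transcription factor of renal epithelium, had 9008 to 16490 counts in each library at 24 h, and VIM (vimentin) had 49860 to 69564. CA9, which most ccRCC cells express, had at most 1 count in any of the 11 libraries. The library CTRL 2 h replicate 1 stood apart from the others in a set of genes that included several of those described here, and its values are given with and without it.

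Collagens are built as triple helices of like or different chains. Fibrillar collagens form the rope-like fibers of connective tissue and are made mainly by fibroblasts, whereas type IV collagen forms the network of basement membranes under epithelia and around vessels. Before the helix is assembled the chains are hydroxylated and glycosylated in the endoplasmic reticulum, and after secretion the propeptides are cut off and the molecules are crosslinked. DCN (decorin) and LUM (lumican) are small leucine-rich proteoglycans that bind fibrils, POSTN (periostin) is a matrix protein secreted by fibroblasts, and THY1 is a surface glycoprotein widely used as a fibroblast marker.

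Most of the 48 genes were low or silent in these cells. At 24 h, 16 had at least 1 CPM on average over the 6 libraries, and 9 had no count in any of them. COL22A1 was at 0 in all 11 libraries. COL6A5, COL9A1, COL9A3, COL13A1, COL23A1 and COL28A1 never exceeded 3 counts in a library. The filter on low counts (edgeR's filterByExpr) kept 18 of the 48 genes at 24 h and 23 at 2 h, where COL1A2, COL8A2, COL11A1, COL24A1 and COL26A1 were added. The 30 genes that it removed at 24 h had at most 13 counts in any library. DCN, LUM, POSTN and THY1 were among these, with 6, 1, 1 and 2 counts summed over the 6 libraries of 24 h.

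COL4A1 and COL4A2, the main chains of basement membrane type IV collagen, stood highest. On the scale of CPM per kilobase, which depends on all the exons annotated for a gene, COL4A1 averaged 89.5 and COL4A2 64.0 over the 24 h libraries. On this scale COL4A1 was 1.13 to 1.56 times COL4A2 in each library of 24 h, and 0.839 to 1.02 times at 2 h. The order rests on exon lengths of 14662 bases for COL4A1 and 19271 for COL4A2. By CPM alone COL4A2 was the higher in CTRL 24 h replicates 1 (845 beside 725) and 2 (1199 beside 1046), and COL4A1 in the other 24 h libraries. By CPM, 50 and 57 genes of the table were at or above the averages of COL4A1 and COL4A2 at 24 h. COL7A1, the chain of the anchoring fibrils that tie epithelium to the underlying matrix, followed with 23.4 CPM per kilobase, and COL18A1, the precursor of endostatin, with 21.1. COL6A2 (17.1), COL6A1 (15.5), COL16A1 (13.6), COL1A1 (11.6), COL5A2 (11), COL27A1 (8.62), COL12A1 (8.05), COL8A1 (6.47) and COL4A5 (5.93) came next, with ranges over libraries that overlapped between neighbors.

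**Figure D1:**
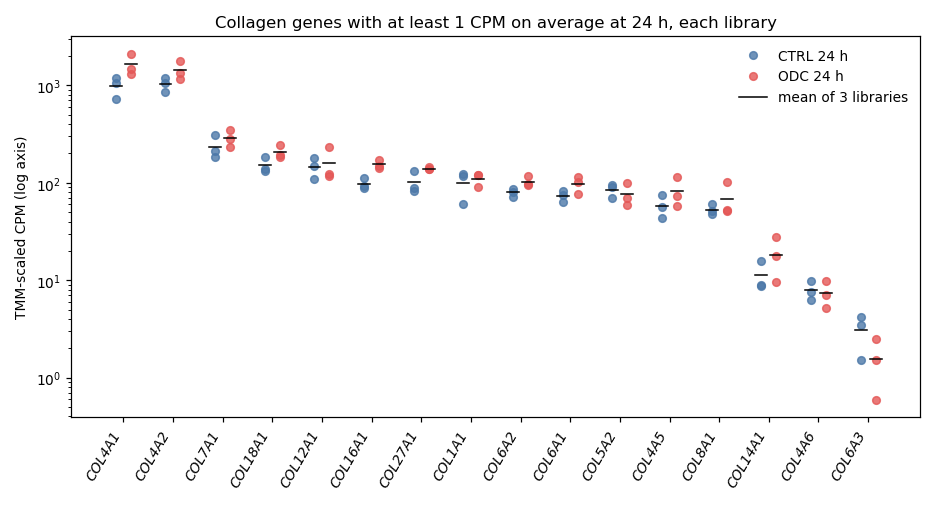
The TMM-scaled CPM (log axis) of the 16 collagen genes with at least 1 CPM on average at 24 h is plotted for each CTRL (blue) and ODC (red) library, with a bar at the mean of 3 libraries. COL4A1 and COL4A2 lie above the other genes in every library, and in COL4A1, COL16A1, COL27A1 and COL6A2 the ODC points all lie above the CTRL points.

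Several collagens were present with hardly any of a partner chain. Type I collagen is commonly a trimer of COL1A1 and COL1A2 chains. COL1A1 was at 6.66 to 13.6 CPM per kilobase in the 24 h libraries, from 12237 counts in all, while COL1A2 had 1 count in all 6 libraries together. Type V collagen showed the same kind of difference at 24 h, with COL5A2 at 8.05 to 13.7 CPM per kilobase and COL5A1 at 0 to 0.0172, from 9 counts in all. COL8A1, a short-chain network collagen, was at 5.06 to 10.8 and its partner COL8A2 at 0.0116 to 0.0309.

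Within types IV and VI some chains ran together and others did not. COL6A1 and COL6A2, which lie near each other on chromosome 21, differed little per kilobase, with a ratio of COL6A1 to COL6A2 of 0.758 to 1.03 at 24 h. COL6A3, the third chain of the usual type VI molecule, was far lower, and COL6A1 exceeded it 77.2 to 498 times per kilobase at 24 h. At 2 h that ratio was 25.8 to 46.5. COL6A5 and COL6A6 were at 0 in the 24 h libraries. COL4A5 exceeded COL4A6, its head-to-head neighbor on the X chromosome, 5.53 to 9.20 times at 24 h. COL4A4 and COL4A3, with which COL4A5 forms the network of the kidney's filtration barrier, averaged only 0.0669 and 0.00830 CPM per kilobase at 24 h. As the samples are bulk RNA, fewer cells with a transcript and less of it per cell cannot be told apart.

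**Figure D2:**
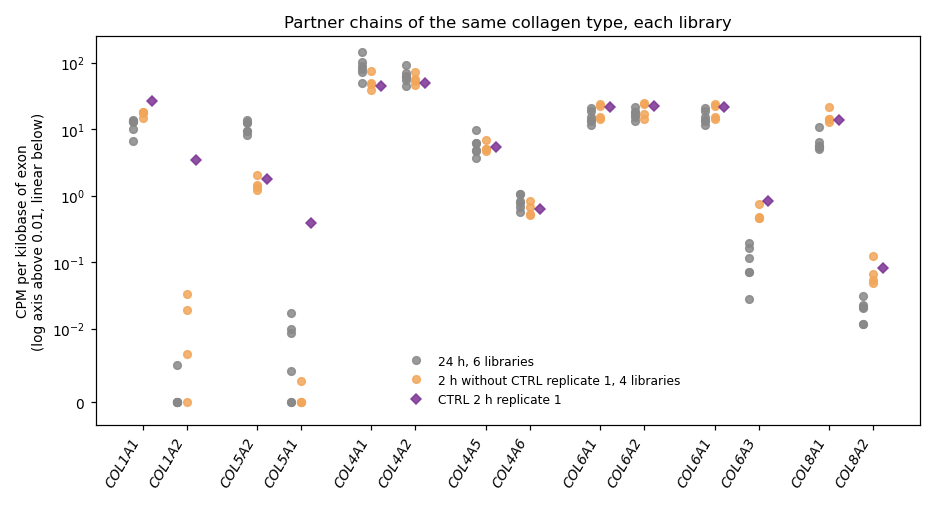
CPM per kilobase of exon (log axis above 0.01, linear below) of partner chains of the same collagen type is shown for the 6 libraries of 24 h (gray), the 4 other libraries of 2 h (orange) and CTRL 2 h replicate 1 (purple diamonds). COL1A2 and COL5A1 lie at or near 0 except in CTRL 2 h replicate 1, where they reach 3.47 and 0.381.

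The first comparison was of ODC with CTRL after 24 h. Among the 18 genes that could be tested, the ODC libraries were higher for 13 and lower for 5. The median log2 fold change was 0.37, beside 0.0009 over all 12689 genes tested, and without ODC replicate 2 it was 0.14. At an unadjusted p under 0.05 in edgeR's quasi-likelihood test, two-sided, 7 of the 18 were higher (38.9%) and 0 were lower, whereas 7.2% of all genes tested were higher and 5.04% lower by the same rule. This rule, at any fold, was chosen after the data were seen, so the shares are given as a description. The 7 were COL4A1, COL4A2, COL6A1, COL6A2, COL16A1, COL18A1 and COL27A1. None of the 18 also reached a 2-fold change, which 2.35% of all genes did. After Benjamini-Hochberg adjustment over all genes 0 of the 18 kept a p under 0.05, beside 0.189% of all genes. The number over all genes was 24. With DESeq2, 2 of the 18 did, and 378 of all genes.

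When CTRL and ODC libraries of adjacent numbers were taken as pairs (the replicate block), 4 of the 18 had an adjusted p under 0.05, which were COL4A1, COL4A2, COL16A1 and COL18A1, and 686 of all genes. In that fit 10 of the 18 had an unadjusted p under 0.05, beside 2999 of all genes. The 3 added to the 7 were COL4A5 and COL14A1, higher in ODC, and COL6A3, lower with a 2-fold change. Every ODC library was above every CTRL library for 4 of the 18 genes (22.2%), beside 9.42% of all genes, and below for 0, beside 8.52%. The count of 7 was 4 without CTRL replicate 1 and also without CTRL replicate 3, and it was 11 without ODC replicate 3, where 20 of the genes could be tested. The number over all genes moved in the same order, from 1553 to 897, 1335 and 2006.

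Among the basement membrane chains, COL4A1 was at 725, 1046 and 1176 CPM in the CTRL libraries and at 1322, 2122 and 1481 CPM in the ODC libraries. All 3 ODC values lay above all 3 CTRL values. The means were 982 ± 232 and 1642 ± 423 CPM (SD, n = 3 each). ODC thus exceeded CTRL by 0.74 on the log2 scale (standard error 0.22), and edgeR's quasi-likelihood test gave an adjusted p of 0.242. The adjusted p was 0.0365 with DESeq2 and 0.0303 with the replicate block, and it ranged from 0.0303 to 0.670 over the alternatives. The unadjusted p was under 0.05 in the 14 alternatives run.

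COL4A2 was at 845, 1199 and 1068 CPM in CTRL and at 1161, 1786 and 1341 CPM in ODC, so that the lowest ODC library lay below the highest CTRL library. Its log2 fold change was 0.46 (standard error 0.19, edgeR's adjusted p = 0.369). With the replicate block the adjusted p was 0.0262, within a range up to 0.839 over the alternatives. The unadjusted p was no longer under 0.05 without CTRL replicate 1, without CTRL replicate 3 and without ODC replicate 2. COL4A5 was at 43.9, 74.6 and 56.6 CPM in CTRL and 74.0, 116 and 57.8 in ODC (log2 fold change 0.50, standard error 0.27). Its groups overlapped, with an unadjusted p of 0.107 in edgeR's quasi-likelihood test and 0.0109 with the replicate block (adjusted 0.0951). COL4A4 and COL4A6, both low, had log2 fold changes of -0.49 and -0.092 with overlapping groups.

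COL4A1 on chromosome 13 (chr13:110148963-110307157, minus strand) and COL4A2 (chr13:110305812-110513209, plus strand) are neighbors that are read in opposite directions from a shared control region, and in the annotation their first parts overlap, and the stretch between them lies in an intron of a longer COL4A2 transcript. The stretch between the start of COL4A1 and the first annotated COL4A2 exon beyond it, and the 100 bases before the starts of COL27A1 and COL6A2, are shown because in COL4A1, COL27A1 and COL6A2 every ODC library lay above every CTRL library at 24 h. The same held for COL16A1, whose stretch is not shown because it lies inside the annotated gene. The stretches before COL27A1 and COL6A2 lie in no annotated gene. The sequences are from RefSeq (GRCh38.p14, plus strand), and capitals mark matches on either strand to a CCAAT box (CCAAT), a GC box (GGGCGG) or a TATA box (TATAAA).
COL4A1 to COL4A2, chr13:110307158-110307257: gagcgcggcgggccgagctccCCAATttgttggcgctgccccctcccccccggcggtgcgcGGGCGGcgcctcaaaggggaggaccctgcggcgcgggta
COL27A1, chr9:114155437-114155536: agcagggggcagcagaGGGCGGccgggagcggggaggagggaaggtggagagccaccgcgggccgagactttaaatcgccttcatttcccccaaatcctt
COL6A2, chr21:46098012-46098111: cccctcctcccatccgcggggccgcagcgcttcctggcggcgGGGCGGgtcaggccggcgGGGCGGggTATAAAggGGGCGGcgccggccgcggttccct

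The stretch between the type IV genes held a CCAAT box 22 bases and a GC box 62 bases from the COL4A1 start. COL27A1 held a GC box 84 bases before its start. COL6A2 held 3 GC boxes and, 32 bases before its start, a TATA box. Over the 100 bases before the start of the 35116 promoters of the table, 18.1% held a CCAAT box, 31.3% a GC box and 4.99% a TATA box on either strand. The motifs do not overlap in these stretches, and the matches describe letters only.

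COL16A1, a chain of the fibril-associated group, had the smallest p of the 18. It was at 87.4, 93.1 and 111 CPM in CTRL and at 143, 172 and 149 CPM in ODC, with no overlap between the groups. The means were 97.3 ± 12.5 and 154 ± 15.3 CPM (SD, n = 3 each), which is 0.67 higher in ODC on the log2 scale (standard error 0.12, edgeR's quasi-likelihood test, adjusted p = 0.0983). The adjusted p was 0.000608 with DESeq2, 0.00112 with edgeR's likelihood ratio test, 0.0209 in a joint fit of the 11 libraries and 0.0182 with the replicate block. It reached 0.395 without CTRL replicate 1, and the unadjusted p was under 0.05 in the 14 alternatives run. COL14A1 and COL12A1 of the same group had log2 fold changes of 0.71 (standard error 0.39) and 0.12 (standard error 0.29), and their groups overlapped. COL14A1 was at 8.94, 15.9 and 8.74 CPM in CTRL and at 17.6, 27.7 and 9.66 CPM in ODC, higher in each of the 3 pairs of adjacent libraries. Its unadjusted p in edgeR's quasi-likelihood test was 0.103, and 0.00596 with the replicate block (adjusted 0.0713).

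COL27A1, a fibrillar chain, was at 89.2, 83.2 and 132 CPM in CTRL and at 138, 144 and 138 CPM in ODC. The ODC libraries lay close together and above the CTRL libraries, of which replicate 3 came nearest. The log2 fold change was 0.47 (standard error 0.17, edgeR's adjusted p = 0.312). Its unadjusted p was no longer under 0.05 when CTRL replicate 1 or 2 or ODC replicate 1 or 2 was left out. The other fibrillar chains that were tested did not separate, with log2 fold changes of 0.14 (standard error 0.26) for COL1A1 and -0.15 (standard error 0.21) for COL5A2. Leaving out CTRL replicate 1 turned COL1A1 to -0.13, and leaving out ODC replicate 1 turned COL5A2 to 0.0044.

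Type VI collagen forms beaded filaments that connect cells with the surrounding matrix. COL6A2 was at 87.2, 80.5 and 71.7 CPM in CTRL and at 96.1, 95.9 and 117 CPM in ODC, again without overlap. Its log2 fold change was 0.37 (standard error 0.12, edgeR's adjusted p = 0.270). The unadjusted p was no longer under 0.05 in the joint fit and without CTRL replicate 3. COL6A1 was at 83.0, 63.3 and 74.5 CPM in CTRL and at 103, 76.2 and 115 CPM in ODC, where replicate 2 lay inside the CTRL range. Its log2 fold change was 0.41 (standard error 0.17, edgeR's adjusted p = 0.377), and 6 of the 14 alternatives moved its unadjusted p to 0.05 or more, among them the scaling by library size only. COL6A3 was lower in ODC on average, at 4.18, 1.51 and 3.48 CPM in CTRL and 1.52, 0.594 and 2.5 in ODC, with overlapping groups. Its log2 fold change was -0.98 (standard error 0.52, edgeR's adjusted p = 0.508), and with the replicate block the unadjusted p was 0.00686 (adjusted 0.0755).

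COL18A1, a heparan sulfate proteoglycan of basement membranes, was at 132, 184 and 137 CPM in CTRL and at 191, 244 and 182 CPM in ODC. ODC replicate 3 lay just under CTRL replicate 2. The difference on the log2 scale was 0.45 (standard error 0.16, edgeR's adjusted p = 0.316), and with the replicate block the adjusted p was 0.0175, in a range up to 0.782 over the alternatives. The unadjusted p was no longer under 0.05 without CTRL replicate 1, CTRL replicate 3 or ODC replicate 2. COL7A1 and COL8A1 had log2 fold changes of 0.28 and 0.37 with overlapping groups, and without ODC replicate 2 COL8A1 was at -0.020. COL17A1, a membrane collagen of hemidesmosomes, was low, at 0.782 to 1.97 CPM in CTRL and 0.216 to 1.44 CPM in ODC (log2 fold change -0.80, standard error 0.64).

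Some markers of cell types also differed at 24 h, and those named had an unadjusted p under 0.05 in edgeR's quasi-likelihood test. By the same rule 7.2% of all genes tested were higher and 5.04% lower. Of 9 renal and epithelial markers tested, 3 were higher and 6 lower. KRT8, KRT18 and VIM were lower in every ODC library than in every CTRL library, with log2 fold changes of -0.62 (adjusted p = 0.202), -0.71 (adjusted p = 0.128) and -0.27 (adjusted p = 0.384). The list summed to 5150 to 6110 CPM in CTRL and 4239 to 5275 CPM in ODC. Of 13 fibroblast markers tested, 6 were higher and 7 lower, and 0 of the lower ones passed. Those that passed were ACTA2, SPARC and CCDC80, higher by 0.71 (adjusted p = 0.148), 0.55 (adjusted p = 0.384) and 0.53 (adjusted p = 0.407). The CTRL and ODC groups overlapped for SPARC and CCDC80. That list summed to 4690 to 10130 CPM in CTRL and 4156 to 8170 CPM in ODC, with DPT at 0. Of 2 smooth muscle and pericyte markers tested, 2 were higher. MCAM was higher by 1.24 (adjusted p = 0.237) with overlapping groups, in a list that summed to 14.6 to 30.9 CPM in CTRL and 30.5 to 58.5 CPM in ODC. Of 3 endothelial markers tested, 1 was higher and 2 lower. EGFL7 was the higher one, by 0.58 (adjusted p = 0.270), and the list summed to 4.71 to 5.97 CPM in CTRL and 5.89 to 7.40 CPM in ODC. Of the 2 blood cell markers tested 2 were higher and 0 passed, and that list summed to 51.6 to 70.7 CPM in CTRL and 60 to 96.2 CPM in ODC. Their part in the collagen values was not tested.

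**Figure D3:**
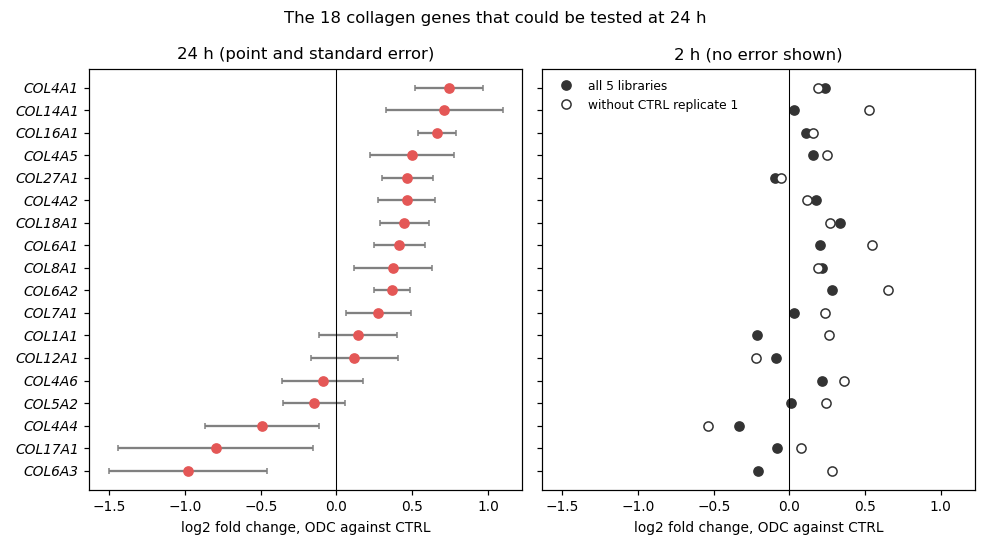
Log2 fold changes of ODC against CTRL are plotted for the 18 collagen genes tested at 24 h, on the left at 24 h with standard errors and on the right at 2 h with all 5 libraries (filled) and without CTRL replicate 1 (open). At 24 h 13 points lie above 0, and at 2 h the open point of COL6A2 lies at 0.65 where the filled one lies at 0.28.

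The genes that process and bind collagen were taken from 6 lists written from general knowledge. At 24 h 44 of them were tested, and ODC was higher in 32 and lower in 12. Their median log2 fold change was 0.13. At an unadjusted p under 0.05, 5 were higher (11.4%) and 2 lower (4.55%), beside 7.2% and 5.04% of all genes. With adjustment 0 had a p under 0.05 in edgeR's quasi-likelihood test, beside 0.189% of all genes. These 7 became 14 with the replicate block, 14 without ODC replicate 3 and 3 without CTRL replicate 1, while the 1553 of all genes became 2999, 2006 and 897.

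Of the 15 genes for hydroxylation and glycosylation, 14 were higher in ODC, beside 6363 of all 12689 genes, and 2 had an unadjusted p under 0.05. P3H2, a prolyl 3-hydroxylase that acts on type IV collagen, was at 573, 457 and 527 CPM in CTRL and at 969, 1083 and 771 CPM in ODC. The groups did not overlap, and the log2 fold change was 0.86 (standard error 0.15, edgeR's adjusted p = 0.0859). P4HA2, a catalytic subunit of prolyl 4-hydroxylase, had a log2 fold change of 0.36 (standard error 0.11, edgeR's adjusted p = 0.239). Of the 10 genes for folding and secretion, 7 were higher and 0 passed an unadjusted p under 0.05. SERPINH1, the collagen chaperone HSP47, had a log2 fold change of 0.30 (standard error 0.14).

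Among the 6 genes for propeptide removal that were tested, BMP1, the C-proteinase, was at 35.5 ± 2.60 CPM in CTRL and 48.4 ± 11 CPM in ODC (SD, n = 3 each), a log2 fold change of 0.44 (standard error 0.17). The related protease TLL2 went the other way with -0.77 (standard error 0.23), and the groups of neither gene overlapped. Of the 5 crosslinking genes, the lysyl oxidase LOXL4 had a log2 fold change of 1.57 (standard error 0.66) at 2.78 ± 2.19 CPM in CTRL and 8.24 ± 5.65 CPM in ODC. The groups of LOXL4 overlapped. TGM2, a transglutaminase, had -0.74 (standard error 0.27), with every ODC library below every CTRL library. The collagen receptor kinase DDR1 was at 20.0 ± 4.27 CPM in CTRL and 33.4 ± 8.47 CPM in ODC, a log2 fold change of 0.74 (standard error 0.22) without overlap. Of the 8 receptors tested, 4 were higher and 4 lower.

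The comparison at 2 h rested on 2 CTRL libraries, of which replicate 1 carried collagen transcripts that the other libraries lacked. With all 5 libraries, ODC was higher in 14 of the 23 genes that could be fitted and lower in 9. The median was 0.031 on the log2 scale, beside -0.006 over all 13332 genes. Without CTRL replicate 1 the same 23 genes gave 20 higher and 3 lower, with a median of 0.26. That fit rests on a single CTRL library. When CTRL replicate 2 was left out instead, the median went the other way, to -0.14, over a larger set of genes. The sign changed for COL1A1, COL1A2, COL6A3, COL11A1, COL17A1 and COL24A1. In the fit of all 5 libraries, COL1A2, COL8A2 and COL11A1 passed the filter on low counts through CTRL replicate 1 (971, 10 and 27 counts). They are included in the splits and medians above, and nothing is read from their direction. COL1A2 went from -6.62 to 1.35, the latter from 2 counts in the remaining CTRL library and 0, 11 and 6 in the ODC libraries. COL6A1 went from 0.20 to 0.55, COL6A2 from 0.28 to 0.65 and COL14A1 from 0.031 to 0.52. With CTRL replicate 2 left out instead, these genes were at -0.067, -0.0054 and -0.32.

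COL4A1 and COL4A2 moved less with this library at 2 h. COL4A1 was at 650 and 690 CPM in CTRL and at 569, 713 and 1082 CPM in ODC, and COL4A2 was at 956 and 1037 CPM in CTRL and at 892, 1089 and 1395 CPM in ODC. In both genes the groups overlapped and ODC replicate 3 was the highest library. The log2 fold change of COL4A1 was 0.23 with all libraries and 0.19 without CTRL replicate 1, and that of COL4A2 was 0.17 and 0.12. COL4A5 went from 0.16 to 0.25, COL4A6 from 0.21 to 0.36 and COL4A4 from -0.33 to -0.54. COL18A1, at 195 and 213 CPM in CTRL and 220, 254 and 295 CPM in ODC, was the only gene of the 23 with every ODC library above every CTRL library, beside 7.91% of all genes. For 0 of the 23 every ODC library was below, beside 7.39% of all genes.

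The levels of many of these genes stood apart between the times. Of the 18 genes tested at 24 h, 4 were higher in every 24 h library than in every 2 h library (COL5A2, COL12A1, COL16A1 and COL27A1), 5 were lower (COL1A1, COL6A3, COL8A1, COL14A1 and COL17A1) and 9 overlapped. COL5A2 was at 9.02 to 15.2 CPM over the 2 h libraries and at 58.9 to 101 CPM over the 24 h libraries. COL16A1 was at 45.6 to 54.3 CPM at 2 h and at 87.4 to 172 CPM at 24 h. COL6A3 was at 9.90 to 18 CPM at 2 h and at 0.594 to 4.18 CPM at 24 h. These ranges include CTRL and ODC libraries alike and do not overlap, but the tables were scaled separately.

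The genes raised in CTRL 2 h replicate 1 alone were found with a ratio of at least 4 to the highest of the other 4 libraries of 2 h and at least 10 counts. Of the 30 genes described here that had 10 counts there, 7 met this (23.3%), beside 1.21% of all 13365 genes with as many counts. As these genes were chosen with that library in view, nothing is read from the comparison. In each of the other 4 libraries, taken in turn, 0 of them and at most 2 of all genes were raised in this way. The 7 were COL1A2, COL3A1, COL5A1, DCN, LUM, POSTN and THY1, and thus the partner chains missing from types I and V were among them.

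COL3A1, the chain of type III collagen, had 1081 counts in CTRL replicate 1, 0 in CTRL replicate 2, and 3, 6 and 3 in the ODC libraries of 2 h. COL1A2 had 971 counts in CTRL replicate 1, 2 in replicate 2, and 0, 11 and 6 in the ODC libraries. Relative to the other 4 libraries pooled, CTRL replicate 1 held 417 times the COL3A1 (exact 95% interval 238 to 810) and 237 times the COL1A2 (151 to 395). These intervals, and those given below, cover counting error only. As the genes were picked for being high in that library, the intervals test nothing. At 24 h COL3A1 had 0 counts in all 6 libraries.

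COL5A1 had 110 counts in CTRL replicate 1 and 1 count in the other 4 libraries together, a ratio of 509 with an exact 95% interval of 89.5 to 20290. DCN had 73 counts there and 1, 2, 0 and 3 in CTRL replicate 2 and ODC replicates 1 to 3 (ratio to the pool 56.3, interval 24.7 to 159). LUM had 65 counts there and 0, 2, 4 and 2 in the same libraries (ratio 37.6, interval 18 to 90.8). THY1 had 28 counts and POSTN 22 in CTRL replicate 1, and both had 0 in the other 4 libraries, so that against a floor of 3 counts over those 4 libraries they were at least 43.2-fold and 33.9-fold higher. In each of the 7 genes CTRL replicate 1 lay above the other 10 libraries of the series.

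**Figure D4:**
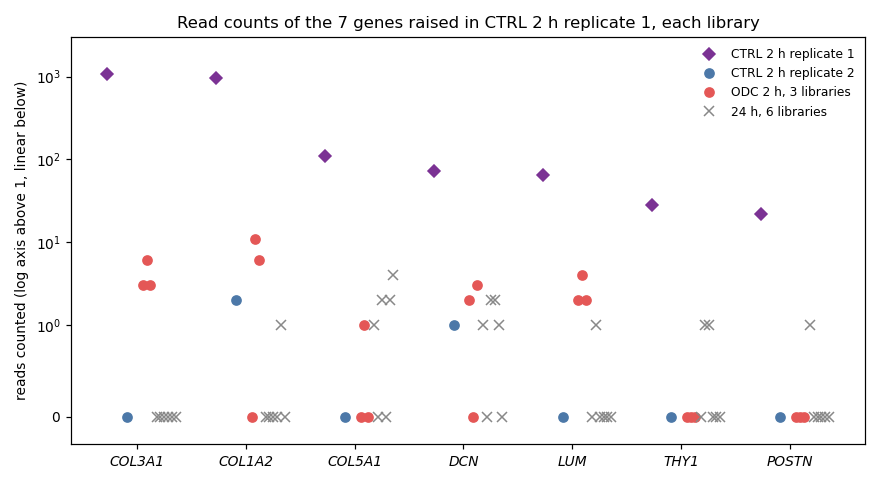
Reads counted (log axis above 1, linear below) for the 7 genes raised in CTRL 2 h replicate 1 are shown for that library (purple diamonds), CTRL 2 h replicate 2 (blue), the 3 ODC libraries of 2 h (red) and the 6 libraries of 24 h (gray crosses). CTRL 2 h replicate 1 lies between 22 and 1081 counts, and no other library exceeds 11.

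Near the limit of the ratio the values lay apart. Of the genes with a count in another library of 2 h, LUM had the smallest ratio inside it, at 19.4 times the highest other library, and COL11A1, the nearest gene outside with at least 10 counts, at 2.52 times with 27 counts. COL15A1 (7 counts), COL19A1 (8) and COL2A1 (4) exceeded a ratio of 4 with fewer than 10 counts, and COL10A1 had 7 counts in CTRL replicate 1 and 0 in the other 10 libraries.

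COL1A1, which all libraries expressed, was also highest in CTRL replicate 1, at 237 CPM beside 134 CPM in CTRL replicate 2 and 155 to 163 CPM in ODC at 2 h. The excess over the mean of the other 4 libraries of 2 h was 83.7 CPM. Per kilobase of exon the excess was 9.29 for COL1A1, 6.17 for COL3A1 and 3.46 for COL1A2, and in that library COL1A1 exceeded COL1A2 7.59 times, beside at least 522 times in the 3 other libraries of 2 h that had any COL1A2. COL6A3, at 18 CPM there and 9.90 to 15.9 CPM in the others, was 1.57 times the other 4 libraries pooled.

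A few markers of other cell types also met the rule for raised genes in CTRL 2 h replicate 1, and most did not. The rule was met by 1.21% of all genes with at least 10 counts there, whereas the marker lists also hold genes with fewer counts. Those could not meet it at any ratio. FAP had 9 counts there beside 0 to 1 in the other libraries of 2 h, and KDR 7 beside 0 to 1, while TEK had 0 beside 4 to 6. Of 28 fibroblast markers outside the 48 genes, FBLN2, MFAP4 and CDH11 were raised by the same rule, and 7 in all had counts there and in no other library. DPT was the 1 gene of this list at 0 in all 11 libraries. The list summed to 8614 CPM in CTRL 2 h replicate 1, 5167 to 7412 CPM in the other libraries of 2 h and 4156 to 10130 CPM at 24 h, nearly all from genes that the line itself expressed, such as FN1. VWF was raised among 10 endothelial markers, LYZ among 10 blood cell markers with CD3D at 0 throughout, and NOTCH3 among 8 markers of smooth muscle and pericytes, each with 13 to 29 counts. The endothelial list summed to 8.28 CPM there and 5.96 to 9.50 CPM in the other libraries of 2 h, the blood cell list to 94.4 and 81.5 to 123 CPM, and the smooth muscle list to 42.2 and 36.5 to 53.7 CPM.

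Some epithelial markers were raised there too. Of 14 renal and epithelial markers, KRT19 had 48 counts beside 0 to 3 in the other libraries of 2 h, EPCAM 100 beside 19 to 27, and CDH1 21 beside 0 to 5, in a list that summed to 6377 CPM there and 5947 to 6666 CPM in the others. BGN (biglycan), a small proteoglycan related to DCN, had 85 counts beside 4 to 10. The part of other cells, of another sample or of the library preparation in these values was not tested.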

How the data were processed

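Stranded mRNA libraries were sequenced as single-end reads. The authors aligned them to hg38 with STAR and counted reads per gene with HTSeq, and the submitters' processing notes give STAR 2.7.0f, HTSeq 0.9.1 and edgeR 3.26.8. The deposited values were raw counts per gene symbol, in 1 table per time, without normalization. Whether HTSeq used the strand is not given in the sources used here, so overlapping genes such as COL4A1 and COL4A2 may share reads.

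From these counts, ODC was compared with CTRL at 24 h and at 2 h separately with edgeR 4.0.16 (R 4.3.3; quasi-likelihood F test in its earlier form, TMM scaling, filterByExpr at its minimum count of 10 and minimum total of 15), fitted on all genes with Benjamini-Hochberg adjustment. Standard errors are the log2 fold change divided by the square root of F. Exon lengths and positions came from GENCODE release 44, promoters from RefSeq, where 33 of the 48 genes were matched, and figures from matplotlib 3.10.9. The tests were tested on simulated data. Alternatives were 2 other filters, 2 other scalings, DESeq2 1.42.0, edgeR's likelihood ratio test, a joint fit of all libraries, each library left out, and, as the replicate block, pairs of adjacent library numbers at 24 h. In these pairs the CTRL and ODC deviations from their means had correlations of 0.2, 0.583 and 0.445. The other combinations ran from -0.547 to 0.226, and CTRL replicate 1 with ODC replicate 3 (0.226) exceeded the first pair. The sources used here do not say what paired libraries share.

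The genes, lists and tests were chosen with earlier results of these data known. Named with values were genes with at least 1 CPM on average at either time, those raised in CTRL 2 h replicate 1, those with an unadjusted p under 0.05 at 24 h and their partner chains, at most 3 genes per processing list, and of all other genes the 10 most raised in that library. COL26A1, COL15A1, COL19A1, COL2A1, COL10A1, FBLN2, BGN and the other marker genes were named after their values were seen. Replicate libraries differed by more than sampling noise (chi-square 18.7 to 58 per gene). The labels do not say whether they came from separate cultures, so p-values measure the spread between these libraries, which may be technical.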

Additional observations from a re-analysis of the deposited data

How the results depend on the processing

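The count of collagen genes with an unadjusted p under 0.05 and a 2-fold change at 24 h, 0 in the report, was 1 without the filter on low counts and 1 in the joint fit (COL26A1 in both, at 0 counts in each CTRL library and 2 to 4 in each ODC library), 1 with the replicate block (COL6A3), and 0 to 4 with a library left out. The count with an adjusted p under 0.05, also 0, was 2 with DESeq2, 1 with the likelihood ratio test, 1 in the joint fit, 4 with the replicate block and 0 with any library left out, while the 24 of all genes became 378, 401, 186, 686 and 2 to 70. The 7 genes at an unadjusted p under 0.05 and any fold, a rule chosen after seeing the data, became 10 with the block and 4 to 11 with a library left out, and the 7 processing genes became 14 with the block and 3 to 14 with a library left out. The median at 24 h was 0.14 to 0.39 with a library left out. The median at 2 h was -0.25 without the filter on low counts and -0.14 to 0.25 with a library left out. The sign of 5 genes turned when a library was left out: COL1A1 (-0.13 to 0.32), COL12A1 (-0.28 to 0.30, with -0.065 without CTRL replicate 1), COL5A2 (-0.40 to 0.0044), COL4A6 (-0.36 to 0.10) and COL8A1 (-0.020 to 0.54). The other 13 genes kept their direction in each alternative run. The number raised in CTRL 2 h replicate 1 was 5 to 8. The causes were not tested. At this depth 30 of the 48 genes at 24 h and 25 at 2 h had too few counts to be fitted.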

Other observations

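Over the whole table, 162 of the 13365 genes with at least 10 counts were raised in CTRL 2 h replicate 1 by the same rule, the 7 described above included. Among the other genes with at least 30 counts, the 10 with the largest ratios were IGFBP2 (101 counts), AEBP1 (65), PTGDS (64), GLUL (60), IGFBP5 (60), A2M (58), ASS1 (56), FDCSP (55), SERPING1 (55) and HLA-DRA (53). Each had at most 2 counts in any other library of 2 h. AEBP1 encodes a matrix protein that binds collagen, and IGFBP2 and IGFBP5 bind insulin-like growth factors. HLA-DRA is an antigen-presenting molecule, and GLUL and ASS1 are enzymes of amino acid metabolism. Of these, IGFBP2, GLUL and FDCSP had 0 counts in each of the other 10 libraries.

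Small structural RNAs, picked after their values were seen, were also higher in that library. RN7SL2, an RNA of the signal recognition particle, had 541 counts there and 21 to 75 in the other libraries of 2 h. RN7SK had 512 beside 43 to 61, RN7SL1 468 beside 26 to 58, and RMRP 313 beside 9 to 45.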
